A study of Mus musculus with 32 samples.

Results

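The 39 genes described here encode the machinery of autophagy, from the kinase that starts it to the receptors that carry cargo. They were taken from a fixed list of gene symbols, and the Entrez identifiers of the count table matched all 39 by symbol, of 24885 identifiers in the table. They were measured in mouse bone marrow-derived macrophages, which are macrophages grown in culture from marrow cells. All 32 libraries came from the strain labelled C57BL/6, and 4 libraries made up each of 8 groups. Wild-type cells (labelled WT) and cells of Trem2–/– mice (labelled T2KO, called knockout below) were each kept in low or normal M-CSF, with no LPS or with LPS at 10 ng/ml for 4 hours. M-CSF is the growth factor that macrophages need to survive and divide, TREM2 is a surface receptor for lipids on macrophages, and LPS is a bacterial product that starts the inflammatory response. The protocols describe overnight culture in 0.5% or 10% LCCM, a conditioned medium that supplies M-CSF. It is inferred here, and stated nowhere in the labels, that low stands for 0.5% and normal for 10%. The Trem2–/– mice were generated in earlier work, per the labels. The age and sex of the mice are not given, nor is it said if replicate libraries had different mice or cultures as their source, so each p measures the spread between libraries, which may be technical.

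Autophagy wraps pieces of cytoplasm in a growing membrane, which closes into an autophagosome and fuses with the lysosome. The ULK kinase complex starts the process, a lipid kinase complex around PIK3C3 and BECN1 marks the membrane, and WIPI and ATG2 proteins bind that mark and feed lipid into it. Conjugation enzymes then attach ATG8 proteins (the LC3 and GABARAP families) to the membrane, where cargo receptors such as p62, the product of Sqstm1, bind both the ATG8 proteins and the cargo. In macrophages the same machinery limits inflammation and helps to clear bacteria, and growth factor signalling through mTOR is its classical brake. RNA levels alone do not measure autophagic flux.

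Total counts per library ran from 3068863 to 15585423 (median 5596111), and those given LPS in low medium held 3068863 to 6248835. All 39 genes had counts in all 32 libraries and passed the filter on low counts that left 11244 genes. Levels are counts divided by the scaled library total (CPM) after TMM scaling. The TMM factors differed between groups. Without LPS they ran from 1.27 to 1.37 in normal and from 1.15 to 1.24 in low medium. With LPS they ran from 0.903 to 1.01 in normal and from 0.598 to 0.752 in low medium. A count of 3, the upper limit that a count of 0 allows, corresponded to between 0.163 and 1.46 CPM on this scale, and to 0.768 to 1.46 CPM in knockout and 0.994 to 1.28 CPM in wild-type libraries of low medium with LPS. This floor covers counting error only, because the protocols mention no molecular identifiers. Trem2 itself was lower in the knockout in all 4 conditions, by 2.0 to 5.76 on the log2 scale. Counts of the gene remained, at a mean of 115 CPM in knockout against 460 CPM in wild-type cells in low medium without LPS, where the difference was smallest. The counts do not show where in the gene these reads lie. Which exons the knockout lacks is not given in the sources used here. Of 10 macrophage markers none was at 0 in any group, and their summed level ran from 5272 to 11930 CPM. The summed neutrophil markers (11 of 12 in the table, none at 0) lay at 72.2 to 92.9 CPM in wild type with normal medium and at 125 to 156 CPM in low medium, without LPS, and in the knockout at 77.1 to 87.9 and 198 to 262 CPM. With LPS they reached 284 to 440 CPM in the knockout in low medium. Their part in the results was not tested. In 6 of the 8 groups, libraries 1 and 3, and 2 and 4, resembled each other more than any other pair of the group did, and the labels do not say what they share. This did not hold in 2 groups, both wild type with no LPS: in normal medium, where library 3 was nearer to 2 and 4 than to 1, and in low medium, where library 4 was nearer to 1 and 3 than to 2. In 173 of the 312 member and group combinations (55.4%) libraries 1 and 3 lay wholly on one side of libraries 2 and 4, against 53.4% over all genes tested. Counts of genes are therefore also given after libraries 1 with 3, and 2 with 4, were summed to leave 2 samples a group.

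In low medium without LPS, 21 of the 39 genes were higher and 1 was lower than in normal medium in wild-type cells, and 21 were higher and 2 lower in knockout cells (edgeR quasi-likelihood F test, adjusted p under 0.05 over all genes tested, the threshold for every call below). Among all genes tested, 22.4% were higher and 21.9% lower in wild-type cells, and 26.6% higher and 21.7% lower in knockout cells. The median log2 fold change of the 39 was 0.51 for wild type and 0.59 for the knockout, beside 0.01 and 0.10 over all genes tested. Of the genes that rose, 16 were the same in both genotypes, which is 76.2% of each set. The matching share over all genes tested was not worked out, so this is not a result about the 39. With libraries summed in pairs, 13 genes in wild-type and 14 in knockout cells were still called, all of them higher. Over all genes, 2969 and 3539 of 12020 tested were called with summed pairs, against 4983 and 5422 of 11244 without summing. The summed level of the 39 genes was 1984 ± 149 CPM (SD, n = 4 here and below) for wild type in normal medium and 3228 ± 44.6 CPM in low medium. For the knockout it was 2101 ± 108 and 3348 ± 86.7 CPM. Sqstm1, Gabarap and Tax1bp1 held 46.1% of this sum in normal and 40.2% in low medium in wild-type cells. In knockout cells they held 48.0% and 37.8%. The wild-type calls of these genes were lost with summed pairs. In these bulk samples, less RNA of a gene per cell and fewer cells that express it cannot be told apart.

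**Figure D1:**
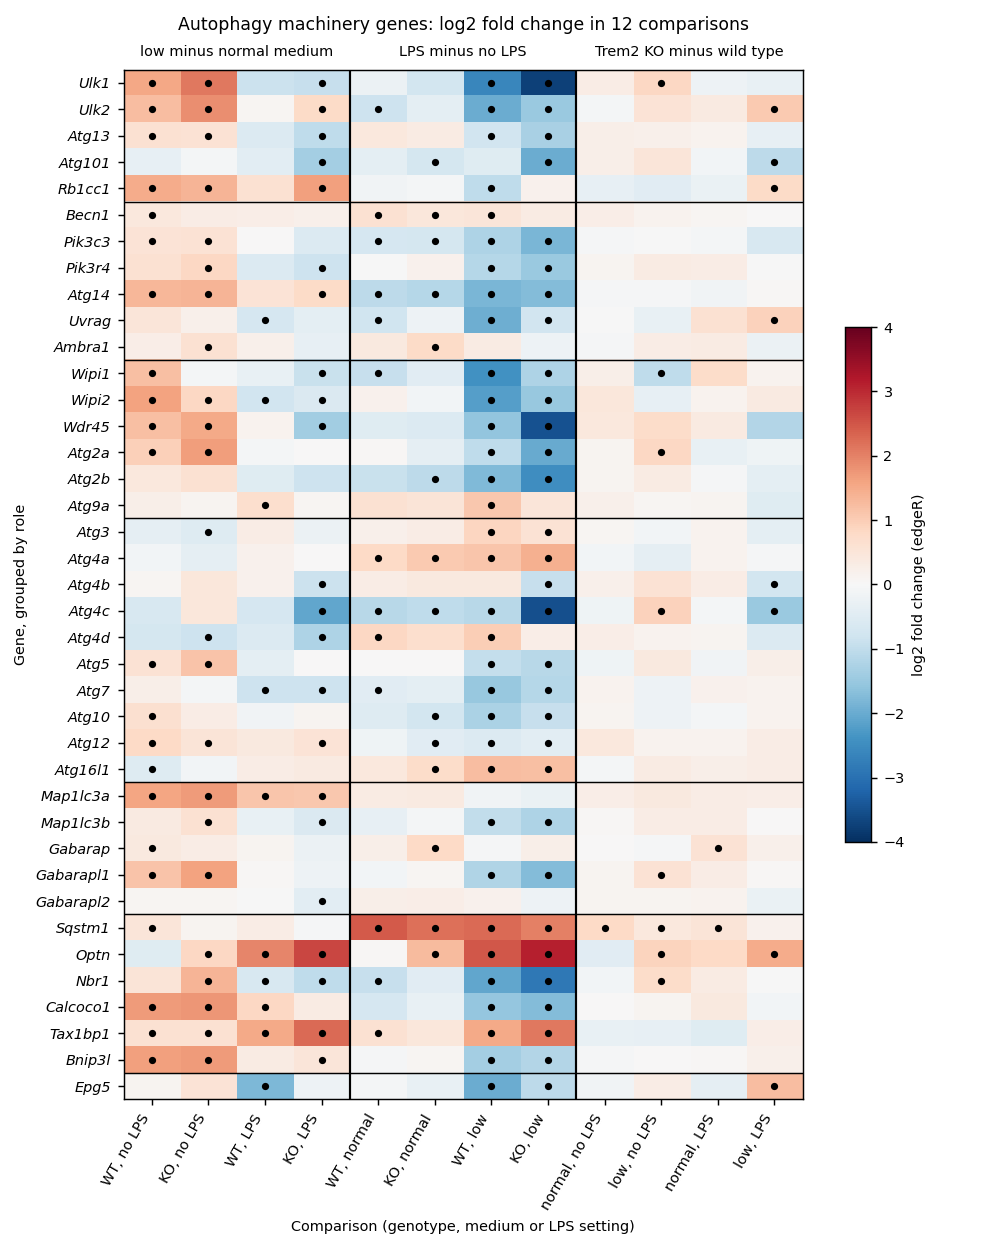
Colour gives the log2 fold change of each of the 39 genes (vertical axis, grouped by role with lines between groups) in 12 comparisons (horizontal axis), red for higher and blue for lower. Dots mark an adjusted p under 0.05. The left columns hold 21 rises in each genotype, and the columns for LPS in low medium hold 24 and 25 falls.

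Of the 5 genes of the initiation complex, 4 rose in each genotype. Ulk1, the kinase itself, stood at 8.62, 6.75, 8.11 and 6.61 CPM in the 4 wild-type libraries in normal medium and at 25.5, 16.4, 21.5 and 25.0 CPM in low medium. In knockout cells it stood at 7.45, 8.65, 9.12 and 11.6 CPM in normal medium and at 44.8, 30.2, 52.3 and 30.5 CPM in low medium. Every low-medium library was above every normal-medium library of its genotype. The rise of Ulk1 was 1.55 ± 0.29 (log2, SE; adjusted p = 3.58e-05, edgeR) in wild-type and 2.10 ± 0.29 (adjusted p = 1.57e-07, edgeR) in knockout cells. Its paralogue Ulk2 rose by 1.23 and 1.85 (log2), from 19.9 ± 1.10 to 71.7 ± 6.88 CPM in knockout cells. The scaffold Rb1cc1 (FIP200) rose by 1.49 and 1.36, and the adaptor Atg13 by 0.62 and 0.59. Both Atg13 calls were lost with libraries summed in pairs (adjusted p = 0.116 and 0.111, edgeR). Atg101, which steadies ATG13, was not called in either genotype (log2 differences of -0.31 and -0.07).

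In the lipid kinase complex, Atg14, the subunit that directs the kinase to autophagy, rose by 1.34 in wild-type and 1.35 in knockout cells (log2). The catalytic subunit Pik3c3 rose by 0.56 and 0.59, and neither call held with libraries summed in pairs (adjusted p = 0.124 and 0.142, edgeR). The regulatory subunit Pik3r4 rose by 0.83 in knockout cells and had a difference of 0.60 in wild type (adjusted p = 0.0693, edgeR), and the genotype by medium term was 0.22 (adjusted p = 0.84, edgeR). Becn1 (0.42 in wild type) and its regulator Ambra1 (0.62 in knockout) were called in 1 genotype each, and both calls were lost with summed pairs. Uvrag, the subunit of the endosomal form of the complex, was not called in either genotype.

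Among the genes that act on the lipid mark, Wipi2, which recruits the conjugation machinery, rose by 1.62 in wild-type cells, from 16.2 ± 3.74 to 49.6 ± 15.2 CPM. In the 4 wild-type libraries it stood at 11.7, 19.8, 14.6 and 18.6 CPM in normal medium and at 35.1, 66.8, 38.8 and 57.7 CPM in low medium. Libraries 2 and 4 were the higher ones in both media, and the media did not overlap. In knockout cells Wipi2 rose by 0.84. Wdr45 (WIPI4) rose by 1.22 and 1.53, and the lipid transfer gene Atg2a by 0.94 and 1.66. Atg2b, its paralogue, and Atg9a, the scramblase of the seed vesicles, were not called in either genotype.

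Wipi1 was the one member whose medium response was called different between the genotypes without LPS. Its level was 16.3, 18.8, 19.1 and 17 CPM in wild-type libraries in normal medium and 37.4, 40.2, 32.5 and 52.5 CPM in low medium. The knockout libraries held 23.7, 20.9, 23.2 and 16.6 CPM in normal and 17.3, 23.5, 15.5 and 23.0 CPM in low medium. The wild-type media did not overlap, while those of the knockout did. The difference of the responses was -1.28 ± 0.32 (log2, SE; adjusted p = 0.0116, edgeR). It was the only call among the 39 for this term, beside 1.41% of genes tested with a positive and 3.21% with a negative term, and it was lost with libraries summed in pairs (adjusted p = 0.316, edgeR). At an unadjusted p under 0.05 there were 7 of the 39. Terms that were not called reached 1.33 among the receptors and 1.09 among the conjugation enzymes, so the lack of a call does not show equal responses. The 4 monocyte markers, none at 0, summed to 99.96 to 148 CPM in normal and 427 to 504 CPM in low medium in wild-type cells, and to 83.0 to 98.8 and 137 to 173 CPM in knockout cells. Their part in the Wipi1 result was not tested.

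The conjugation enzymes were the least uniform group. Atg12 (0.79 and 0.52) and Atg5 (0.58 and 1.15), which are joined to each other, rose in both genotypes. With libraries summed in pairs, Atg5 in wild-type cells (adjusted p = 0.139, edgeR) and Atg12 in knockout cells (0.138) were not called. Atg10, the enzyme that joins them, rose by 0.63 in wild-type cells (adjusted p = 0.135 with summed pairs, edgeR) and had a difference of 0.29 in knockout cells (adjusted p = 0.342, edgeR). Atg16l1, which carries the ATG12 and ATG5 pair to the membrane, fell by 0.52 in wild-type cells, from 14.5 ± 2.42 to 10.1 ± 1.80 CPM. In knockout cells, the transferase Atg3 fell by 0.52, from 59.3 ± 8.56 to 41.4 ± 4.6 CPM, and the protease Atg4d by 0.83, from 8.92 ± 4.78 to 4.97 ± 1.54 CPM. None of these 3 falls was called with libraries summed in pairs (adjusted p = 0.15, 0.141 and 0.108, edgeR), and without knockout normal-medium library 4 that of Atg4d had an adjusted p of 0.329. Atg7, the activating enzyme, and the proteases Atg4a, Atg4b and Atg4c were not called in this comparison.

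The ATG8 genes did not move as a family. Map1lc3a rose by 1.57 and 1.70 (log2), from 7.31 ± 1.72 to 21.8 ± 3.19 CPM in wild-type cells. Gabarapl1 rose by 1.15 in wild-type cells, where its libraries held 41.4, 39.9, 45.7 and 34.6 CPM in normal and 94.4, 66.5, 97.7 and 99.9 CPM in low medium. In knockout cells it rose by 1.61, from 42.4, 42.0, 45.5 and 45.4 CPM to 147, 121, 140 and 128 CPM. All low-medium libraries were above all normal-medium libraries in both genotypes. Map1lc3b, the gene of the usual autophagosome marker LC3B, rose by 0.60 in knockout cells and was not called in wild-type cells (0.37, adjusted p = 0.0559, edgeR). Its libraries held 114, 140, 114 and 159 CPM in normal and 225, 173, 217 and 183 CPM in low medium in knockout cells, without overlap. In wild-type cells they held 134, 122, 126 and 124 CPM in normal and 190, 122, 190 and 153 CPM in low medium, where library 2 lay within the range of normal medium. The knockout call was lost with summed pairs (adjusted p = 0.0873, edgeR). Gabarap rose by 0.40 in wild-type cells (adjusted p = 0.25 with summed pairs, and 0.233 without low-medium library 2, edgeR), and Gabarapl2 was not called.

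Among the receptors, Bnip3l (NIX), a receptor for mitochondria, had the smallest adjusted p of the 39 in both genotypes. For wild type it stood at 110, 181, 127 and 184 CPM in normal medium and at 445, 477, 466 and 503 CPM in low medium. In knockout cells it rose from 155, 126, 164 and 136 CPM to 427, 492, 450 and 525 CPM. The rises were 1.65 ± 0.16 (log2, SE; adjusted p = 1.78e-10, edgeR) and 1.71 ± 0.16 (adjusted p = 3.32e-11, edgeR), and the media were far apart in both genotypes. Calcoco1, a receptor of the endoplasmic reticulum and Golgi, rose by 1.69 and 1.77, from 5.82 ± 1.98 to 18.9 ± 1.99 CPM in wild-type and from 5.96 ± 1.98 to 20.2 ± 3.20 CPM in knockout cells. Tax1bp1, a receptor for ubiquitinated cargo, rose by 0.62 and 0.59, and neither call held with libraries summed in pairs (adjusted p = 0.231 and 0.246, edgeR). Nbr1, a receptor that works with p62, rose by 1.37 in knockout cells, from 21.8, 26.1, 24.5 and 31.9 CPM to 54.7, 66.9, 72.5 and 74.8 CPM. In wild-type cells it went from 26.5, 24.2, 35.5 and 26.7 to 37.0, 34.1, 43.5 and 46.3 CPM, which was not called (0.51, adjusted p = 0.061, edgeR). The genotypes' responses of Nbr1 differed by 0.86 (adjusted p = 0.121, edgeR), which does not pass. Sqstm1 rose by 0.48 in wild-type cells (adjusted p = 0.177 with summed pairs, edgeR), and Optn, a receptor for bacteria and mitochondria that TBK1 activates, by 0.83 in knockout cells, a call lost without knockout low-medium library 2 or 4 (adjusted p = 0.1 and 0.0727, edgeR). Epg5, the tether that joins autophagosomes to lysosomes, was not called in either genotype.

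**Figure D2:**
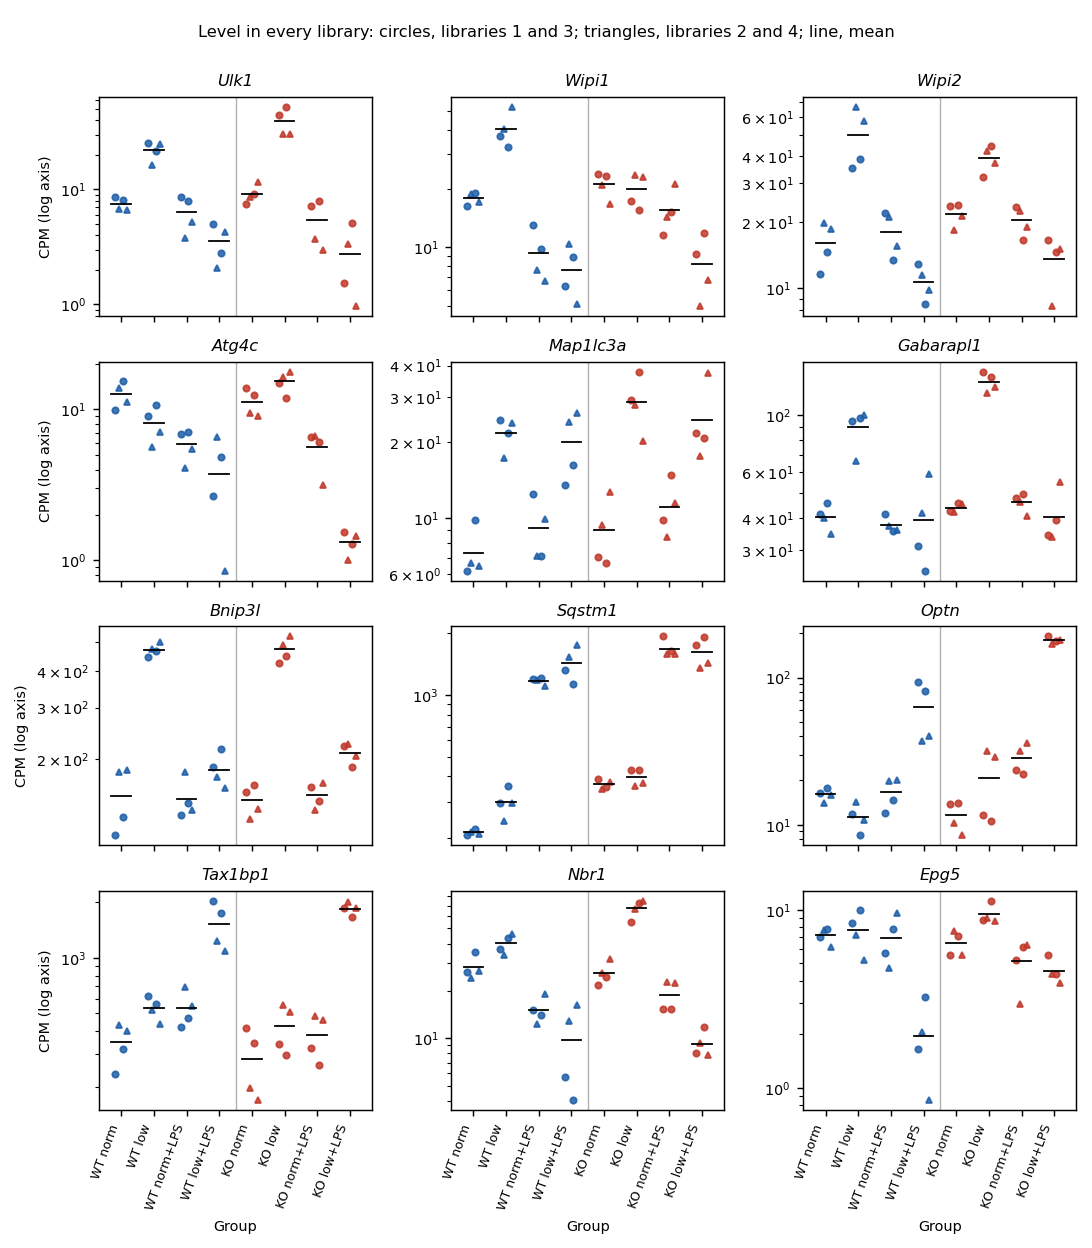
Level in CPM (vertical axis, log scale) of 12 of the genes in every library of the 8 groups (horizontal axis), with wild type in blue and knockout in red. Circles are libraries 1 and 3, triangles are libraries 2 and 4, and lines are group means. Ulk1 and Bnip3l are high in low medium without LPS and lower with LPS, while Optn is highest for the knockout in low medium plus LPS, at 169 to 191 CPM.

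The promoters of the strongest members show what sequence lies ahead of genes that rose together, and RefSeq (GRCm38.p6, the assembly of mm10) gave promoters for 31 of the 39 genes. The bases printed lie before the annotated start, 5′ to 3′ on the gene's strand, for Ulk1 and Calcoco1, which rose in low medium, and Sqstm1, which rose with LPS. Bnip3l had no entry. Capitals mark GGGCGG or its complement CCGCCC, the GC box, a motif added after these sequences were seen.
Ulk1, chr5:110810121-110810331, minus strand: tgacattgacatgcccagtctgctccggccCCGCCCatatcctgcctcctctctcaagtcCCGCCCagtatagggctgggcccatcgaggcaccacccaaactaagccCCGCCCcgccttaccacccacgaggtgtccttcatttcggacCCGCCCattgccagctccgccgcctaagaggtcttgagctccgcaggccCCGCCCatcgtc
Calcoco1, chr15:102722179-102722428, minus strand: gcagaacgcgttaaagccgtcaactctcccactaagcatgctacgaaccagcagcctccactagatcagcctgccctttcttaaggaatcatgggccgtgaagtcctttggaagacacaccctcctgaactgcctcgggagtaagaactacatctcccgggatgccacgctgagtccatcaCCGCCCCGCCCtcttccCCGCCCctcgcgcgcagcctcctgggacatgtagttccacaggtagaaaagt
Sqstm1, chr11:50210821-50211070, minus strand: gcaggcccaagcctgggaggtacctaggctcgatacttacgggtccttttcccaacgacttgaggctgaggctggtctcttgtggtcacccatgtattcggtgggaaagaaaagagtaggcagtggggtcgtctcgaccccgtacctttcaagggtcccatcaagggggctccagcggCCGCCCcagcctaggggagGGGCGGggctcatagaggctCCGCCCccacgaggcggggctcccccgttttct
Ulk1 held 5 matches and the others 3 each. The GC box was in 19 of the 31 promoters, beside 64.1% of the 9096 genes tested that have an entry and 32.7% of all 32851 promoters of this length. Of the other letters searched on both strands in the 250 bases before the start, CACGTG (the E-box core) was in 3 of 31 (Atg3, Atg5 and Atg7; 10.2% of genes tested, 6.02% of all promoters). The longer TCACGTGA, which contains CACGTG, was in Atg3 alone (1.92% of genes tested, 0.79% of all promoters). TGACNNNGC was in Atg13, Tax1bp1 and Ulk2 (14.1% and 10.2%). Neither GTAAACA (2.66% and 3.17%) nor GGGANTTTC (1.02% and 0.94%) was in any of the 31. The Atg3 stretch is shown because it alone holds the longer letters, in capitals, beginning 72 bases before the start.
Atg3, chr16:45158737-45158784, plus strand: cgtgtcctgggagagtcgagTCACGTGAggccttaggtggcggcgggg
These shares for the 31 genes with an entry lie near those of the genes tested, and a match is a description of letters.

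In wild type LPS changed 13 of the 39 genes with normal medium and 33 with low medium, and in the knockout 14 and 31. In normal medium, 5 were higher and 8 lower in wild-type cells (18.3% and 17.9% of all genes tested), and 7 higher and 7 lower in knockout cells (20.9% and 21.8%). In low medium, 9 were higher and 24 lower in wild-type cells (27.0% and 33.6% of all genes tested), and 6 higher and 25 lower in knockout cells (26.5% and 41.0%). The median log2 fold change of the 39 in low medium was -1.0 in wild type and -1.12 in the knockout, beside -0.18 and -0.36 over all genes tested. The summed level of the 39 was higher with LPS, at 4515 ± 350 CPM in wild-type and 5316 ± 179 CPM in knockout cells (3228 and 3348 CPM without LPS). Sqstm1, Gabarap and Tax1bp1 held 75.5% and 75.0% of it. As a share of raw counts the 39 were lower with LPS, at 0.308 to 0.331% against 0.376 to 0.396% in wild-type cells. In knockout cells the shares were 0.317 to 0.346% against 0.400 to 0.408%. The direction of the total thus depended on the scaling. Of the genes that fell in low medium, 23 were shared, 95.8% of the wild-type and 92.0% of the knockout set, and with summed pairs 23 were still lower in each genotype. For sharing too, the matching share over all genes tested was not worked out. In normal medium, summed pairs left 5 calls in wild-type and 7 in knockout cells, and size factors in place of TMM gave 3 higher and 9 lower in wild-type and 6 higher and 9 lower in knockout cells. Over all genes, summed pairs gave 2594 and 3204 calls in normal medium, against 4061 and 4796 without summing. In low medium they gave 5603 and 6550, against 6824 and 7590. The libraries of low medium without LPS serve both here and in the medium comparison above, so the rise there and the fall here are not independent.

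In normal medium Sqstm1 stood apart. It held 207, 215, 222 and 210 CPM in wild-type libraries without LPS and 1189, 1181, 1211 and 1109 CPM with LPS, a rise of 2.46 ± 0.15 (log2, SE; adjusted p = 3.44e-16, edgeR). The knockout libraries went from 390, 349, 356 and 377 CPM to 1929, 1578, 1643 and 1573 CPM, a rise of 2.19 ± 0.15 (adjusted p = 5.3e-15, edgeR). Every library with LPS was above every library without it. In normal medium such separation was found upward for 6 and downward for 7 of the 39 in wild type (19.3% and 18.5% of all genes tested). In the knockout it was found for 6 and 8 (21.1% and 21.0%). In low medium Sqstm1 rose by 2.26 in wild-type and 2.02 in knockout cells, to 1435 ± 269 and 1614 ± 266 CPM. Sqstm1 overlaps the gene Mrnip on the other strand by 580 bases at its 3' end. The libraries are described as strand-specific, but the strand setting of the counting is not given in the sources used here, so reads of both could be mixed. Sqstm1, Gabarap and Tax1bp1 together held a share of the summed CPM of the 39 genes that was 46.1% in wild-type cells in normal medium without LPS and 67.9% with LPS.

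The other rises in normal medium were smaller. Atg4a, a protease of ATG8 proteins, rose by 0.79 in wild-type cells (6.56 ± 1.37 to 11.5 ± 3.73 CPM) and by 1.04 in knockout cells (5.92 ± 2.56 to 12.5 ± 5.42 CPM). The first was lost with summed pairs (adjusted p = 0.174, edgeR), with size factors, with DESeq2, with the replicate block (0.0516) and when 7 of the 8 libraries were left out in turn, the second without knockout LPS library 2 (adjusted p = 0.0684, edgeR). Atg4d rose by 0.84 in wild-type cells, from 7.18 ± 1.85 to 13.1 ± 2.34 CPM (adjusted p = 0.15 with summed pairs, edgeR). Becn1 rose in both genotypes (0.62 and 0.44) and Tax1bp1 in wild-type cells (0.62), and all 3 calls were lost with summed pairs, that of Tax1bp1 also with the replicate block (0.058). In knockout cells Gabarap rose by 0.78, Atg16l1 by 0.73, Ambra1 by 0.77 (adjusted p = 0.0549 with summed pairs, edgeR) and Optn by 1.27. A difference between the genotypes' responses in normal medium was called for 0 of the 39 by edgeR, with 3 at an unadjusted p under 0.05 and none by DESeq2, beside 0.329% of genes tested with a positive and 0.205% with a negative term. The estimate for Optn was 1.23 (adjusted p = 0.188, edgeR).

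Of the falls in normal medium, Atg14 fell by 1.05 in wild-type (16 ± 2.97 to 7.76 ± 2.24 CPM) and 1.14 in knockout cells (15.3 ± 2.12 to 6.96 ± 0.972 CPM). Atg4c fell by 1.10 and 1.01, from 12.6 ± 2.46 to 5.88 ± 1.38 CPM and from 11.2 ± 2.36 to 5.62 ± 1.66 CPM, and Pik3c3 by 0.67 and 0.70. These 3 genes were lower with LPS in all 4 comparisons, and Atg4a and Sqstm1 were the 2 that were higher in all 4. In wild-type cells Nbr1 (28.2 ± 4.96 to 15.1 ± 2.88 CPM, 0.91 lower), Wipi1, Ulk2, Uvrag and Atg7 also fell, of which Nbr1 and Ulk2 were still called with summed pairs. In knockout cells Atg2b (6.65 ± 0.853 to 3.22 ± 0.615 CPM, 1.05 lower), Atg10, Atg101 and Atg12 fell, and all 4 of these were lost with summed pairs.

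In low medium Ulk1 had the largest fall of the 39 in both genotypes. It dropped from 44.8, 30.2, 52.3 and 30.5 CPM to 1.54, 3.33, 5.12 and 0.971 CPM in knockout cells, a fall of 3.73 ± 0.36 (log2, SE; adjusted p = 1.45e-11, edgeR). In wild-type cells it dropped from 25.5, 16.4, 21.5 and 25.0 CPM to 4.97, 2.07, 2.83 and 4.28 CPM, a fall of 2.62 ± 0.36 (adjusted p = 7.58e-08, edgeR). Every library with LPS was below every library without it. In low medium such separation was found downward for 22 and upward for 6 of the 39 in wild type (28.3% and 23.0% of all genes tested). In the knockout it was found for 23 and 6 (34.6% and 23.3%). The levels with LPS rest on few reads, 5 to 15 counts in wild-type and 2 to 20 in knockout libraries. Ulk2 fell by 1.98 and 1.48 and Atg13 by 0.77 and 1.29, while Rb1cc1 fell in wild-type cells (1.03; 0.18 higher in the knockout, adjusted p = 0.569, edgeR) and Atg101 in knockout cells (1.99; 0.48 lower in wild type, adjusted p = 0.0603, edgeR).

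Of the 6 genes of the lipid kinase complex, Pik3c3, Pik3r4, Atg14 and Uvrag fell in both genotypes, by 0.77 (Uvrag in the knockout, adjusted p = 0.0523 with summed pairs, edgeR) to 1.96 (Uvrag in wild type). Becn1 rose by 0.47 in wild-type cells, a call lost with summed pairs, and Ambra1 was not called. Of the lipid-mark genes, Wipi1 fell by 2.41 in wild-type cells (40.7 ± 8.52 to 7.66 ± 2.37 CPM) and by 1.25 in knockout cells, and Wipi2 by 2.20 (49.6 ± 15.2 to 10.7 ± 1.95 CPM) and 1.52. Wdr45 fell by 3.47 in knockout cells, from 20.1, 20.4, 25.4 and 18.5 CPM to 1.24, 4.67, 1.02 and 0.485 CPM, where the last rests on 1 count. Wdr45 was called lower in wild-type cells too, from 12.8 ± 4.92 to 4.30 ± 1.73 CPM. Atg2a and Atg2b fell in both genotypes, and Atg9a rose in wild-type cells (1.07). Wdr45 and Atg9a each share bases at the 3' end with another annotated gene on the same strand, 65 and 1000 of the last 1000, so their counts are uncertain.

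The proteases and conjugation enzymes split by gene. Atg4c fell by 3.53 in knockout cells, from 15.0, 16.5, 11.9 and 17.8 CPM to 1.54, 1.0, 1.28 and 1.46 CPM, which are 3 to 5 counts a library. In wild-type cells Atg4c went from 9.06, 5.63, 10.7 and 7.05 CPM to 2.65, 6.61, 4.85 and 0.856 CPM, 1.12 lower and with overlap. Atg4a (1.09 and 1.41), Atg3 (0.85 and 0.57) and Atg16l1 (1.25 and 1.2) rose in both genotypes, while Atg5, Atg7, Atg10 and Atg12 fell in both, the last by 0.56 and 0.43 and not with summed pairs. Atg4d rose in wild-type cells (0.98) and Atg4b fell in knockout cells (0.91). Of the ATG8 genes, Gabarapl1 fell by 1.2 and 1.74 and Map1lc3b by 0.98 and 1.25. The libraries of Map1lc3b with LPS held 80.8, 74.0, 81.6 and 96.7 CPM in wild-type and 74.1, 86.6, 68.9 and 107 CPM in knockout cells, below all libraries without LPS in low medium. Map1lc3a, Gabarap and Gabarapl2 were not called.

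The receptors parted, with 3 higher and 3 lower in both genotypes. Optn had the largest rise of the 39 in both genotypes. It held 11.7, 31.7, 10.6 and 28.8 CPM in knockout cells in low medium and 191, 169, 178 and 180 CPM with LPS, a rise of 3.10 ± 0.29 (log2, SE; adjusted p = 1.03e-11, edgeR). In wild-type cells it rose by 2.48 ± 0.30, from 11.9, 14.3, 8.47 and 10.7 CPM to 94.1, 37.2, 81.6 and 40.2 CPM (adjusted p = 5.33e-09, edgeR). Neither pair of groups overlapped, and wild-type libraries 1 and 3 were apart from 2 and 4. Tax1bp1 rose by 1.51 and 2.12, from 536 ± 78.5 to 1526 ± 441 CPM and from 425 ± 126 to 1853 ± 133 CPM. Nbr1 fell by 2.07 and 2.85, Bnip3l by 1.36 and 1.17, and Calcoco1 by 1.55 and 1.75. With LPS the Nbr1 libraries held 5.63, 12.8, 4.04 and 16.3 CPM in wild-type and 8.03, 9.33, 11.8 and 7.77 CPM in knockout cells, and those of Bnip3l 188, 174, 217 and 160 and then 223, 226, 189 and 205 CPM. Every one of these was below all libraries of its genotype in low medium without LPS. Epg5 fell by 1.97 and 1.04.

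The medium by LPS term tests directly whether LPS responses differed between the media. It was negative for 14 and positive for 3 of the 39 in wild-type cells (12.8% and 10.7% of all genes tested) and negative for 20 and positive for 2 in knockout cells (22% and 13.3%). The median of the term was -0.76 for wild type and -0.81 for the knockout, beside -0.14 and -0.28 over all genes tested. With summed pairs 5 and 14 of the calls were left. Over all genes, 853 and 1702 were called with summed pairs, against 2649 and 3971 without summing. Ulk1 had a term of -2.40 ± 0.47 (log2, SE; adjusted p = 0.000272, edgeR) in wild-type and -3.02 ± 0.48 (adjusted p = 9.19e-06, edgeR) in knockout cells. Bnip3l (-1.32 and -1.23), Wipi2 (-2.38 and -1.41) and, in the other direction, Optn (2.44 and 1.83) likewise kept their calls in both genotypes under every alternative tried, as did Ulk1. With size factors in place of TMM, the knockout split was 17 negative and 2 positive calls, and that of all genes tested moved from 37.6% to 50.4% positive. Their median moved from -0.28 to -0.11.

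**Figure D3:**
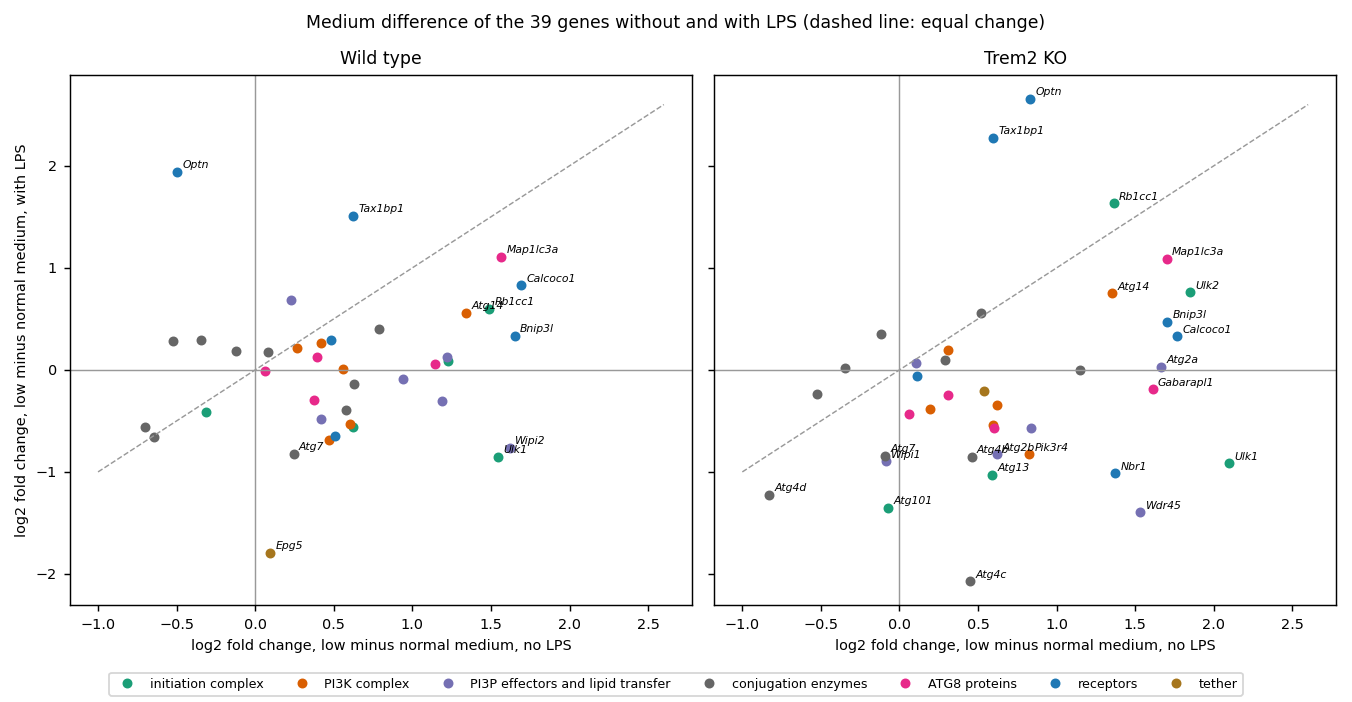
Each point is 1 of the 39 genes, with the log2 fold change of low against normal medium without LPS (horizontal axis) and with LPS (vertical axis), in wild-type (left) and knockout cells (right), coloured by role. Most points lie below the dashed line of equal change, and Optn and Tax1bp1 lie above it in both panels.

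With LPS present, the medium comparison looked different, and it shares no libraries with the one without LPS. In wild-type cells 5 of the 39 rose and 5 fell (21.4% and 24.2% of all genes tested), and in knockout cells 8 rose and 14 fell (26.5% and 32.8%). These shares are near or below those of all genes. The medians were 0.06 and -0.24, beside -0.10 and -0.14, and with summed pairs 5 and 14 genes were called. Over all genes, 3327 and 5306 were called with summed pairs, against 5132 and 6660 without summing. Size factors moved the median of all genes by over 0.1, to 0.005 in wild type and 0.02 in the knockout, and changed the members' splits to 11 higher and 3 lower and to 9 higher and 10 lower.

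Optn rose in both genotypes, from 12.0, 19.8, 14.7 and 20 CPM to 94.1, 37.2, 81.6 and 40.2 CPM in wild-type cells (1.94 ± 0.29, log2, SE; adjusted p = 1.55e-06, edgeR). In knockout cells it rose from 23.6, 31.9, 22.2 and 36.2 CPM to 191, 169, 178 and 180 CPM (2.66 ± 0.29; adjusted p = 1.1e-09, edgeR). The media did not overlap in either genotype. Tax1bp1 rose by 1.51 (535 ± 122 to 1526 ± 441 CPM) and by 2.28 (383 ± 106 to 1853 ± 133 CPM), and Map1lc3a by 1.11 (9.13 ± 2.59 to 19.9 ± 6.02 CPM) and 1.09. Map1lc3a and Tax1bp1 were the 2 genes higher in low medium in all 4 medium comparisons. In knockout cells Rb1cc1 rose by 1.63 (67.8 ± 15.9 to 210 ± 12.0 CPM), and Ulk2, Atg14, Atg12 and Bnip3l rose by 0.47 to 0.76, with Atg12 and Bnip3l lost in summed pairs. Calcoco1 (0.83) and Atg9a (0.68) were called in wild-type cells and lost with summed pairs.

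Among the falls in wild-type cells, Epg5 dropped from 6.97 ± 2.20 to 1.95 ± 0.990 CPM, 1.79 lower, and Atg7 from 33.0 ± 5.67 to 18.6 ± 3.81 CPM, 0.82 lower. Wipi2 fell by 0.76 in wild-type cells (18.1 ± 4.21 to 10.7 ± 1.95 CPM, adjusted p = 0.053 with summed pairs, edgeR), and Uvrag (0.69) and Nbr1 (0.65) were also called and lost with summed pairs. In knockout cells Atg4c fell by 2.07 ± 0.42 (log2, SE; adjusted p = 7.02e-05, edgeR), from 6.55, 6.67, 6.09 and 3.15 CPM to 1.54, 1.0, 1.28 and 1.46 CPM, with no overlap. Atg101 fell by 1.35 (14.7 ± 0.952 to 5.56 ± 2.0 CPM) and Wdr45 by 1.39 (4.93 ± 2.51 to 1.85 ± 1.90 CPM). The Wdr45 call was lost with summed pairs (adjusted p = 0.0553, edgeR) and without any of knockout low-medium libraries 1, 3 and 4 or normal-medium libraries 1 and 3 (adjusted p up to 0.081, edgeR). Atg4d, Atg13, Nbr1, Ulk1, Wipi1, Atg4b, Atg7, Pik3r4, Wipi2, Map1lc3b and Gabarapl2 also fell in knockout cells, by 0.43 to 1.23, of which Ulk1, Pik3r4, Wipi2, Map1lc3b and Gabarapl2 were lost with summed pairs.

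Between the genotypes, the shares of the 39 genes called were 2.56% and 5.13% in normal medium without and with LPS and 20.5% in low medium in both cases. They lay near those of all genes tested, 1.86%, 4.04%, 16.7% and 19.1%, so the pattern over the media is that of all genes and not a result about these 39. In normal medium without LPS, 1 gene was higher and none lower (0.747% and 1.11% of all genes tested). With LPS in normal medium, 2 were higher and none lower (1.98% and 2.05%). In low medium without LPS, 7 were higher and 1 lower (7.74% and 8.97%), and with LPS 5 were higher and 3 lower (8.2% and 10.9%). With libraries summed in pairs, 0, 0, 0 and 1 genes were called, the last being Optn. Over all genes, 39, 43, 621 and 485 were called with summed pairs, against 209, 454, 1879 and 2147 without summing. At an unadjusted p under 0.05 the numbers of the 39 in the 4 comparisons were 3, 5, 13 and 11 with 4 libraries a group, and DESeq2 called 1, 3, 8 and 8. The median differences of the 39 were 0.10, 0.13, 0.21 and 0.01, beside -0.01, 0.00, 0.07 and -0.05 over all genes tested. All 4 knockout libraries lay above all 4 wild-type ones for 2, 3, 10 and 3 of the 39, and below them for 1, 0, 2 and 2. Over all genes tested the shares were 3.99%, 7.52%, 11.4% and 7.6% above and 4.59%, 6.73%, 10.3% and 7.97% below.

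**Figure D4:**
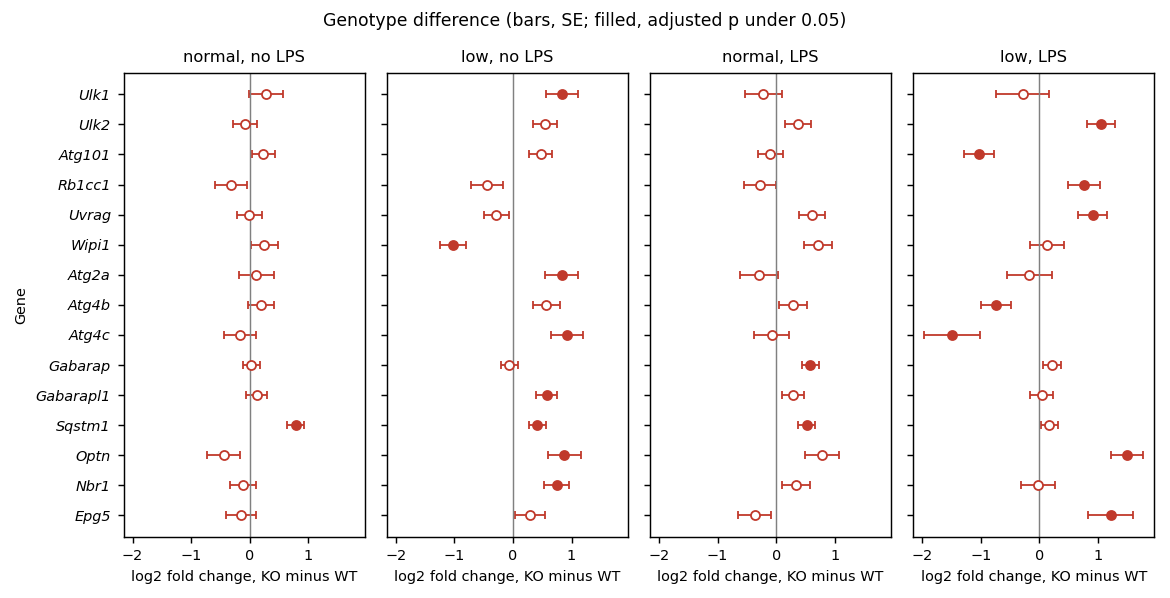
Log2 fold change of knockout against wild type (horizontal axis, bars are SE) for the 15 genes called in at least 1 of the 4 conditions (panels). Filled points passed an adjusted p of 0.05. Only Sqstm1 is filled in 3 panels, and Optn is the point farthest to the right with LPS in low medium.

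Sqstm1 was the member called in most conditions. In normal medium without LPS, all 4 knockout libraries (390, 349, 356 and 377 CPM) were above all wild-type ones (207, 215, 222 and 210 CPM), by 0.79 ± 0.15 (log2, SE; adjusted p = 0.000859, edgeR). That call held when any 1 library was left out and was lost with summed pairs (adjusted p = 0.427, edgeR), which leave 2 samples a group. In normal medium with LPS the knockout was higher by 0.52 (adjusted p = 0.0349, edgeR), again without overlap, and leaving out any of the 8 libraries raised the adjusted p above the threshold (0.0541 to 0.14). In low medium without LPS the difference was 0.41 (adjusted p = 0.0467, edgeR), lost with size factors, without the filter, with the compared groups alone, with the replicate block (0.0501) and with summed pairs, and in low medium with LPS it was 0.17 (adjusted p = 0.447, edgeR). In normal medium with LPS, Gabarap was also higher in knockout cells, at 689, 564, 709 and 503 CPM against 420, 396, 415 and 416 CPM. The difference was 0.58 (adjusted p = 0.0175, edgeR), lost without knockout library 1 or 3 or wild-type library 2 (adjusted p up to 0.0984).

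In low medium without LPS, the knockout was higher for Ulk1 (0.83), Atg2a (0.83), Atg4c (0.92), Gabarapl1 (0.58), Nbr1 (0.74), Optn (0.88) and Sqstm1, and lower for Wipi1 (-1.03). For Nbr1 the knockout libraries (54.7, 66.9, 72.5 and 74.8 CPM) were all above the wild-type ones (37.0, 34.1, 43.5 and 46.3 CPM), and the same held for Gabarapl1, Ulk1 and Atg4c with the values given above. For Optn, knockout libraries 2 and 4 (31.7 and 28.8 CPM) were above all wild-type libraries, and libraries 1 and 3 (11.7 and 10.6 CPM) were within their range. Leaving out knockout library 2 or 4, or wild-type library 1, 3 or 4, ended the call of Optn (adjusted p up to 0.156, edgeR). Without wild-type library 2, 2 of the 8 calls were left. The call of Wipi1 held without any 1 library and reached an adjusted p of 0.0611 with summed pairs (edgeR).

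In low medium with LPS, Optn was higher in knockout cells by 1.5 ± 0.28 (log2, SE; adjusted p = 0.000223, edgeR), at 191, 169, 178 and 180 CPM against 94.1, 37.2, 81.6 and 40.2 CPM. All knockout libraries were above all wild-type ones, and under the alternatives the adjusted p ran from 2e-06 to 0.0433, so this was the only genotype call of the 39 that held under every alternative. Ulk2 (1.05), Epg5 (1.22), Uvrag (0.91) and Rb1cc1 (0.76, adjusted p = 0.0645 with the replicate block, edgeR) were also higher. Epg5 held 5.56, 4.33, 4.35 and 3.88 CPM in knockout and 1.66, 2.07, 3.23 and 0.856 CPM in wild-type libraries, without overlap but on 2 to 18 counts. Atg101 (-1.04), Atg4b (-0.74) and Atg4c (-1.49) were lower in knockout cells. The Atg4c libraries overlapped, at 1.54, 1.0, 1.28 and 1.46 CPM against 2.65, 6.61, 4.85 and 0.856 CPM. Leaving out knockout library 1 or 3 left 5 of the 8 calls. Size factors left 5 higher and 2 lower, while the share of higher among all called genes moved from 42.9% to 53.2%.

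The response to LPS in low medium was called different between genotypes for 7 of the 39, with a positive term for 3 and a negative term for 4 (7.52% and 8.49% of all genes tested). Negative terms, a response lower in the knockout than in wild type, were found for Atg4c (-2.41), Wdr45 (-1.89), Atg101 (-1.51) and Atg4b (-1.31). Positive terms were found for Rb1cc1 (1.21), Uvrag (1.2) and Wipi1 (1.16). For Rb1cc1, the wild-type libraries went from 242, 289, 234 and 246 CPM to 178, 68.6, 176 and 71.5 CPM with LPS, and the knockout ones from 136, 233, 139 and 234 CPM to 195, 224, 214 and 207 CPM. The wild-type groups did not overlap and the knockout groups did. Atg4c, Atg4b, Atg101 and Uvrag kept their calls without any 1 library, and none of the 7 was called with summed pairs (adjusted p from 0.0543 to 0.26, edgeR). Over all genes, 91 were called for this term with summed pairs, against 1800 without summing. With size factors 3 positive and 3 negative terms were called, and the share of positive terms among all calls moved from 46.9% to 60.8%. The response to the medium with LPS was called different for 1 gene, Epg5 (1.58 ± 0.48, adjusted p = 0.0431, edgeR, with 2.2% of genes tested positive and 3.29% negative). That call was lost without any of 10 of the 16 libraries (adjusted p up to 0.105).

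Of 44 other genes of the pathway, which cover its regulators, paralogues, partners of the lipid kinase, further receptors and the fusion machinery, 43 were tested. In low medium without LPS 19 (44.2%) were higher and 5 (11.6%) lower in wild-type cells, beside 22.4% and 21.9% of all genes tested. In knockout cells 23 (53.5%) were higher and 5 (11.6%) lower, beside 26.6% and 21.7%. Pink1, the kinase that marks damaged mitochondria, rose from 8.48 ± 1.41 to 57.4 ± 14.6 CPM in wild-type (2.75) and from 13.3 ± 4.16 to 75.0 ± 15.1 CPM in knockout cells (2.50). Ccpg1, a receptor of the endoplasmic reticulum, rose by 2.0 in both genotypes, and Atg9b, the paralogue of Atg9a, fell by 2.24 and 4.45. In the same medium Vps16 (0.82 lower) in wild-type and Tollip (0.56 lower) in knockout cells were the next falls.

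With LPS in normal medium 5 of the 43 (11.6%) were higher and 10 (23.3%) lower in wild-type cells, beside 18.3% and 17.9% of all genes tested. In knockout cells 7 (16.3%) were higher and 13 (30.2%) lower, beside 20.9% and 21.8%. In low medium 6 (14.0%) were higher and 21 (48.8%) lower in wild-type cells, beside 27.0% and 33.6%. In knockout cells 8 (18.6%) were higher and 22 (51.2%) lower, beside 26.5% and 41.0%. Vmp1, a scramblase of the endoplasmic reticulum, rose in all 4 comparisons (1.5, 2.08, 1.64 and 2.0), and the transcription factor Mitf, a relative of TFEB, rose by 1.49 and 1.99 in wild-type cells in normal and low medium. Tbk1, the kinase that phosphorylates optineurin, rose by 1.33 in knockout cells in normal medium. Foxo1 and Foxo3, transcription factors restrained by growth factor signalling, were among the largest falls. Foxo3 in the knockout in low medium fell by 4.97, from 48.5 ± 9.49 to 1.45 ± 1.15 CPM, and Tfeb, a master regulator of autophagy and lysosome genes, from 25.8 ± 5.10 to 2.11 ± 0.905 CPM in wild-type cells in low medium (3.58). Plekhm1, a fusion adaptor, fell by 3.84 in knockout cells in low medium. Atg9b had no count in any wild-type library and at most 1 count in any knockout library in low medium with LPS, so no fold is given there.

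With LPS, 9 of the 43 (20.9%) were higher and 9 lower in low against normal medium in wild-type cells, beside 21.4% and 24.2% of all genes tested. In knockout cells 15 (34.9%) were higher and 11 (25.6%) lower, beside 26.5% and 32.8%. Ccpg1 (1.67 and 2.82) and Mitf (1.53 and 2.12) rose most, and Plekhm1 and Foxo3 (both 1.14 in wild-type, 1.59 and 1.92 in knockout cells) were among the largest falls. Between genotypes, none differed in normal medium without LPS, 2 were higher and 1 lower in normal medium with LPS, 8 higher and 1 lower in low medium without LPS, and 7 higher and 1 lower in low medium with LPS. Of all genes tested, 0.747% were higher and 1.11% lower in normal medium without LPS, and 1.98% and 2.05% with LPS. In low medium the shares were 7.74% and 8.97% without LPS and 8.2% and 10.9% with LPS.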

How the data were processed

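RNA was captured on oligo-dT beads and primed with barcoded oligo-dT, per the labels' protocols. The authors deposited raw counts per gene. Tools named by the submitters' processing notes are STAR, HTSeq and DESeq2, with mm10 as the build; annotation and strand setting are not given in the sources used here. Symbols came from reference tables (96.3% of 24885 rows, with 99.5% of counts), and 8418 rows had no count.

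The counts of 32 libraries were fitted in 1 model with 8 group means (edgeR 4.0.16 in R 4.3.3; TMM, filterByExpr, quasi-likelihood F test, two-sided, Benjamini-Hochberg over 11244 genes, threshold 0.05) and 18 contrasts. The code was tested on simulated counts drawn independently for each library. That test holds no likeness of libraries 1 with 3 and 2 with 4, so it does not bear on the error rate here. Alternatives were size factors as in DESeq2, no filter, DESeq2 1.42.0, the compared groups alone, a replicate block, libraries summed in pairs and leaving out each library. Same-numbered libraries correlated over 0.1 in every pair in 2 of 12 simple comparisons (LPS in wild type in normal medium, and genotype with LPS in normal medium); there the blocked values are given where a call changed. The members, lists and tests were chosen with earlier results of these data known. All 39 genes are named. Group means are for up to 3 called members of largest change per direction in medium and LPS comparisons. Library values are for the largest rise and fall of each question and 6 further members by smallest adjusted p in genotype or interaction terms; those of Wipi1, Wipi2, Sqstm1, Gabarap, Gabarapl1, Map1lc3b, Bnip3l, Nbr1, Rb1cc1 and Epg5 beyond that rule were added after their values were seen. Of the other autophagy genes, up to 2 of largest change per direction are named, with Pink1, Foxo3 and Tfeb levels added. Becn1 and Map1lc3b also overlap genes on the other strand at their 3' ends. Protein sequences were not used here.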

Additional observations from a re-analysis of the deposited data

Results flagged for a closer look

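In 14 of 312 sets of 4 libraries (1 gene in 1 group) the highest or lowest library lay apart, judged by its gap to the nearest library as a share of the whole range. Chance flags about 1 in 20 such sets. The shares and libraries were as follows. High libraries were Ulk2 in knockout normal medium (library 4, 0.918), Pik3c3 in wild-type normal medium with LPS (library 2, 0.847) and Pik3r4 in knockout normal medium with LPS (library 2, 0.852). Further high ones were Uvrag in knockout low medium (library 1, 0.948), Map1lc3a (library 3, 0.871) and Calcoco1 (library 1, 0.893) in wild-type normal medium, and Epg5 in knockout low medium (library 3, 0.853). Low libraries were Ulk2 in wild-type normal medium with LPS (library 2, 0.86), Atg2b in knockout low medium with LPS (library 2, 0.873, on 1 count) and Atg4b in wild-type low medium (library 2, 0.83). Others were Atg4b in knockout normal medium (library 1, 0.857), Atg4c in knockout normal medium with LPS (library 4, 0.833), Atg5 in knockout low medium with LPS (library 4, 0.864) and Gabarapl1 in wild-type low medium (library 2, 0.837).

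The genotypes' responses were called different, by the interaction term of the same edgeR fit (log2), in 9 cases. For LPS in low medium the terms were -1.51 for Atg101, 1.21 for Rb1cc1, 1.2 for Uvrag, 1.16 for Wipi1, -1.89 for Wdr45, -1.31 for Atg4b and -2.41 for Atg4c. For the medium they were -1.28 for Wipi1 without LPS and 1.58 for Epg5 with LPS.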

How the results depend on the processing

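Of the 235 calls of the 39 genes over 18 comparisons, none changed direction under any alternative. Calls lost and gained numbered 9 and 26 with DESeq2, 20 and 16 with size factors, 21 and 4 without the filter, 29 and 10 with the compared groups alone and 98 and 0 with libraries summed in pairs. The replicate block lost 8 and gained 5, with 12 members called for LPS in wild type in normal medium (13 without it) and 23 for the medium in wild type without LPS (22 without it). Same-numbered libraries correlated at -0.517 to 0.469, and what they share is not given. Outside the 2 comparisons named in the methods the values were mixed. Between genotypes in low medium without LPS they were 0.073, 0.387, 0.244 and -0.097 for libraries 1 to 4. Between media in the knockout without LPS they ran from -0.517 to -0.45.

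Counts that moved by over 1.5 times were as follows. With summed pairs, the medium gave 13 and 14 calls (wild type, knockout) without LPS and 5 and 14 with LPS, LPS in normal medium 5 and 7, the 4 genotype comparisons 0, 0, 0 and 1, the genotype interactions 0 each, and the medium by LPS terms 5 and 14. Without the filter, genotype in normal medium with LPS gave 0 calls, and genotype by medium gave 2 without and 0 with LPS, and DESeq2 gave 2 for the former. With the compared groups alone, genotype in low medium gave 5 calls without and 2 with LPS, genotype by medium with LPS 0 and genotype by LPS in normal medium 1. Leaving out 1 library each gave 2 to 7 for genotype in low medium without LPS, 5 to 7 with LPS, 0 to 2 in normal medium with LPS, 4 to 8 for genotype by LPS in low medium, and 1 to 2 and 0 to 2 for genotype by medium without and with LPS. The lowest of the first 4 of these counts came, in the order low medium without LPS, low medium with LPS, normal medium with LPS and genotype by LPS, without wild-type low-medium library 2, without knockout library 1 or 3 of low medium with LPS, without knockout library 1 or 3 or wild-type library 2 of normal medium with LPS, and without knockout low-medium library 1 or 3 or wild-type library 4 of low medium with LPS. Beyond a smaller number of libraries the cause was not tested. Tests were missing with the compared groups alone for 4 member comparisons, because the filter removed the gene. In low medium with LPS, 3 counts equal up to 1.46 CPM on the TMM scale, so falls to a few counts (Ulk1, Atg4c, Wdr45, Atg2b and Epg5) are imprecise.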
